A study of Mus musculus with 2 samples.

Results

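The Dlg and Magi genes encode scaffold proteins of the membrane-associated guanylate kinase (MAGUK) family. The 7 genes described here are Dlg1, Dlg2, Dlg3, Dlg4, Magi1, Magi2 and Magi3, chosen by gene symbol out of 23329 genes in the files, with 24 of the 30383 transcripts. All 7 genes and all 24 transcripts passed the filter on low values, which asked for a mean over both libraries of 1 CPM or more (a count divided by the size of its library). Levels are given as TPM, a value per length of transcript that is scaled to the same sum in every library, and as estimated counts, which are read counts that the authors divided among overlapping transcripts.

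RNA was sequenced from brains of C57BL/6 mice of genotype WT, with the tissue given as whole brain, in 2 libraries. One library was made from total homogenate, and the other from a synaptosome-enriched fraction, called synaptosomes here for short, that had been taken from a Percoll density gradient after nuclei were spun down. Synaptosomes proper are nerve endings that pinch off when brain is homogenised, often with a piece of postsynaptic membrane attached. Age, sex, the number of brains in each library and whether both libraries came from the same animals could not be read from the labels. Both sample titles carry the tags WT1 and CT10, whose meaning is not given. The estimated counts summed to 15210857 in homogenate and 13709539 in synaptosomes. Each fraction had 1 library, so there was no replicate check and no p-value is given. Intervals are exact 95% counting intervals and cover counting error only.

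MAGUK proteins carry PDZ domains, which grip the C-terminal tails of receptors and channels, and a guanylate kinase domain that binds other proteins and has little or no enzyme activity. Dlg1 (also called SAP97), Dlg2 (PSD-93), Dlg3 (SAP102) and Dlg4 (PSD-95) also have an SH3 domain and hold glutamate receptors, potassium channels and adhesion proteins at excitatory synapses. The Magi proteins have WW domains in place of SH3, and Magi2 (S-SCAM) is found at both excitatory and inhibitory synapses. Dlg genes use alternative first exons, which give N termini that are palmitoylated or that carry an L27 domain, and the stretch between the SH3 and guanylate kinase domains is alternatively spliced.

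The ratio of synaptosome to homogenate was above 1 for Dlg4, Dlg2, Dlg1 and Magi2, close to 1 for Magi3, and below 1 for Magi1 and Dlg3. Ratios are of counts scaled with TMM, which sets the typical gene near a ratio of 1. The synaptosome library had the smaller scaled size, so equal counts give a ratio above 1. A gene or transcript was called higher or lower if its ratio reached 2-fold with an interval that left out 1. None of the 7 genes passed that rule in either direction (0 higher and 0 lower), where 12.8% of the 14153 genes kept were higher and 9.1% were lower. The median log2 ratio of the 7 genes was 0.38, with 5 of 7 above 0, beside a median of -0.01 for all genes kept. In RNA from a bulk fraction, more cells or cell fragments of a type and more RNA in each cannot be told apart.

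Dlg4, the most abundant scaffold of the excitatory postsynaptic density, lies at chr11:70018605-70045531 on the plus strand (mm10). It had 11890 counts in homogenate and 14333 in synaptosomes, and its TPM was 575.2 and 745.2. The ratio was 1.88 (interval 1.84 to 1.93), higher than that of 85.2% of the genes kept and just short of the 2-fold rule. Dlg2, which binds many of the same receptors and channels, lies at chr7:91090786-92449246 on the plus strand. Its counts were 5789 and 6577 and its TPM 140.8 and 164.7, a ratio of 1.77 (1.71 to 1.84). These 2 members stood first and second, with a ratio of ratios of 1.06 (1.02 to 1.11).

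Dlg1, a scaffold linked to receptor trafficking and to cell polarity, lies at chr16:31663443-31873356 on the plus strand. It had 2692 counts in homogenate and 2299 in synaptosomes, a ratio of 1.33 (1.26 to 1.41). Dlg3, a scaffold known for its abundance in the developing brain, lies at chrX:100767723-100818410 on the plus strand. It had 3509 counts and 1368 counts, and its TPM was 143.1 and 58.29. The ratio was 0.609 (0.572 to 0.648), lower than that of most genes: 17.5% of the genes kept had a lower ratio. Dlg4 and Dlg3 were the members furthest apart, with a ratio of ratios of 3.09 (2.89 to 3.31), and Dlg2 against Dlg3 gave 2.91 (2.71 to 3.13).

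Within the Dlg family the mix of mRNAs differed between the libraries, a comparison that does not depend on the scaling. Dlg4 held 49.8% of the Dlg counts in the homogenate (49.2 to 50.4%) and 58.3% in synaptosomes (57.7 to 58.9%). Dlg3 held 14.7% (14.3 to 15.2%) and 5.57% (5.28 to 5.86%). Dlg2 held 24.2% and 26.8%, and Dlg1 held 11.3% and 9.35%. Per length of transcript, Dlg4 made up 60.2% of the Dlg TPM in homogenate and 70.6% in synaptosomes, and Dlg3 made up 15.0% and 5.52%.

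Magi2 lies at chr5:19227046-20704792 on the plus strand and had 1600 and 1331 counts, a ratio of 1.30 (1.21 to 1.40). Magi3, the third Magi scaffold, lies at chr3:104013265-104220406 on the minus strand. Its counts were 1015 and 668, and its ratio of 1.03 had an interval that included 1 (0.931 to 1.13). Magi1, a scaffold known from cell junctions, lies at chr6:93675455-94283904 on the minus strand and had 1847 and 780 counts, a ratio of 0.659 (0.606 to 0.717). The ratio of ratios of Magi2 to Magi1 was 1.97 (1.76 to 2.20). Magi1 was thus the largest contributor in the homogenate, with 41.4% of the Magi counts, and Magi2 the largest in synaptosomes, with 47.9%.

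Among levels per length, Dlg4 stood first in both libraries. In the homogenate it was followed by Dlg3 at 143.1 TPM (counting interval 138.4 to 147.9), Dlg2 at 140.8 (137.2 to 144.5), Dlg1 at 95.77, Magi1 at 45.42, Magi2 at 38.41 and Magi3 at 24.17. Dlg3 and Dlg2 did not differ there beyond counting error. In synaptosomes the order was Dlg4, Dlg2, Dlg1 at 87.76, Dlg3 at 58.29, Magi2 at 34.25, Magi1 at 20.51 (19.1 to 22.0) and Magi3 at 17.16 (15.9 to 18.5). In the order of ratios, the intervals of the ratio of ratios included 1 for Dlg1 against Magi2 (1.03, 0.936 to 1.13) and for Magi1 against Dlg3 (1.08, 0.974 to 1.20).

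For 3 members another scaling gave another sign. When library totals replaced TMM, every log2 ratio was lower by 0.49 and the median of all genes kept was -0.51. Dlg1 then stood at -0.08, Magi2 at -0.12 and Magi3 at -0.45, all above 0 with TMM, while Dlg4 stood at 0.42 and Dlg2 at 0.33. The typical ratio also differed with abundance: when all genes kept were cut by mean CPM into 10 bins of equal size, the bin of the Dlg genes had a median log2 ratio of 0.58 and that of Magi3 one of 0.10. Relative to the median of its bin, Dlg4 stood at 0.33, Dlg2 at 0.24, Dlg1 at -0.17 and Dlg3 at -1.30.

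**Figure D1:**
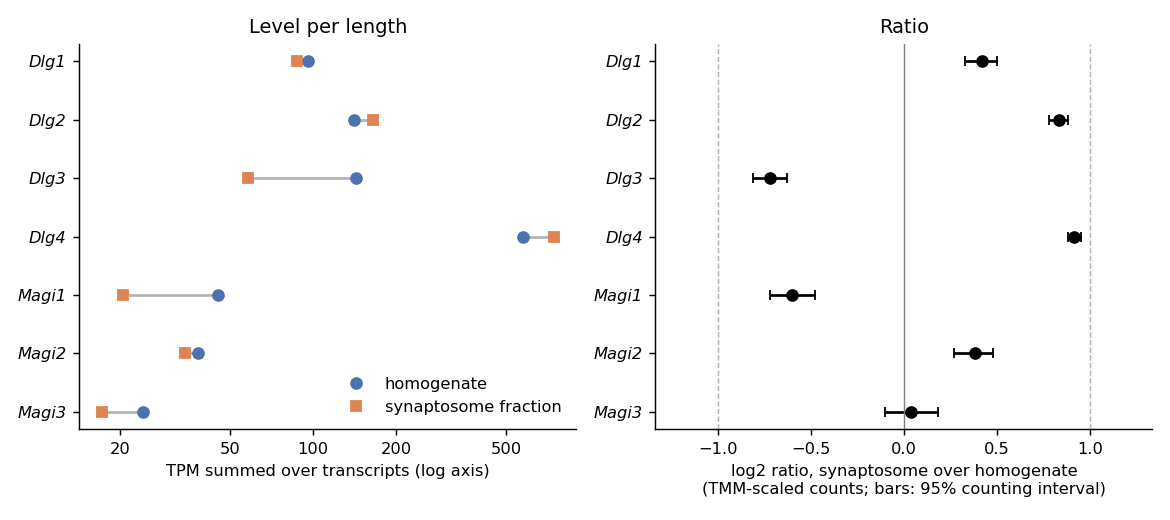
Levels and ratios of the 7 genes, with 1 library per fraction. The left panel plots TPM on a log axis in the homogenate (circles) and synaptosomes (squares); the right panel plots the log2 ratio of TMM-scaled counts with 95% counting intervals, with dashed lines at 2-fold. Dlg3 and Magi1 lie below 0 on the right, Magi3 has an interval that spans 0, and no gene reaches the dashed lines.

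At the level of transcripts the differences were larger than at the level of genes. Of the 24 transcripts, 9 (37.5%) were higher in synaptosomes by the same rule and 1 was lower, where 16.2% of the 17613 transcripts kept were higher and 13.5% lower. Among transcripts of genes with 2 or more transcripts, the shares were 21.2% higher and 20.4% lower. The 9 higher transcripts came from Dlg1, Dlg2, Magi1, Magi2 and Magi3, and none from Dlg3 or Dlg4. As a share of their own gene's counts, 5 transcripts stood at least 10 percentage points higher in synaptosomes and 5 at least 10 points lower, where 18.4% of all transcripts of such genes did so in each direction. By library totals, 4 of the 24 were higher and 6 lower, beside 7.83% and 28.0% of all transcripts kept, and by DESeq2 size factors 0 were lower. Transcripts of 1 gene share most of their sequence, so their estimates are not independent of each other.

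**Figure D2:**
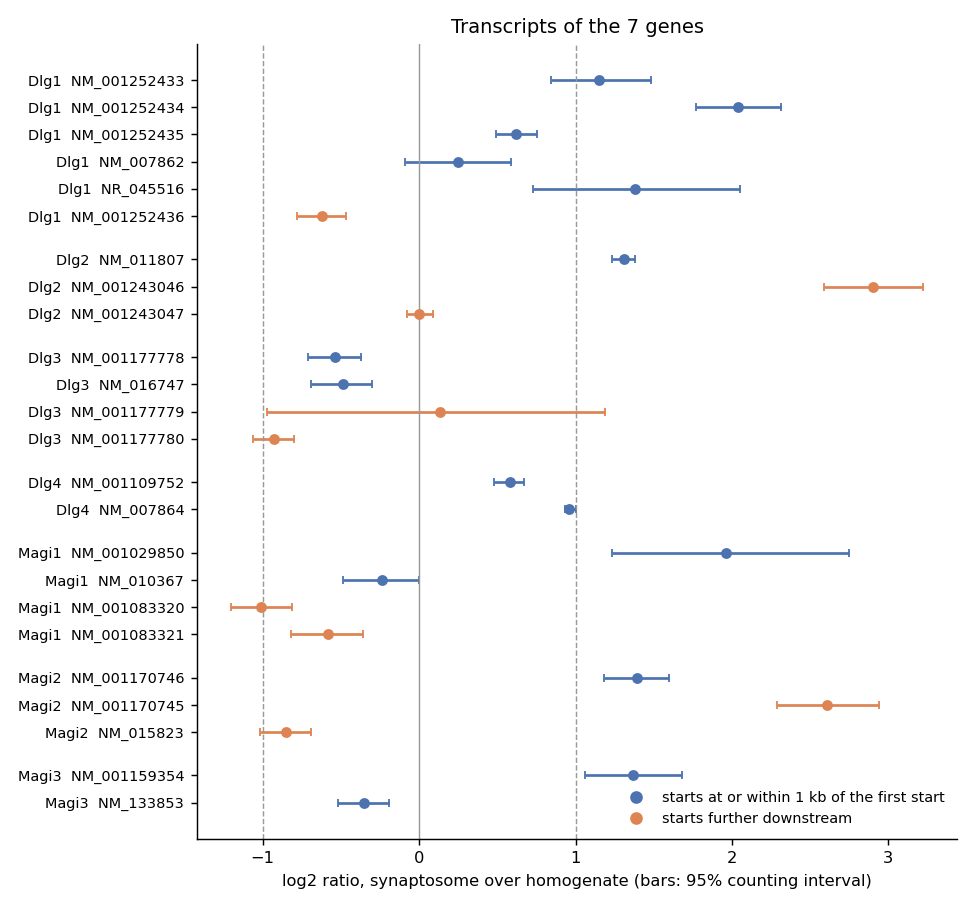
Log2 ratio of each of the 24 transcripts, synaptosome over homogenate, with 95% counting intervals and dashed lines at 2-fold. Colour separates transcripts that start at or within 1 kb of the gene's first start from those that start further downstream. The highest point is the Dlg2 transcript NM_001243046, and NM_001083320 of Magi1 is the 1 transcript called lower.

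Dlg4 was represented by 2 transcripts that share their start and differ by 9 bases, the first bases of the exon printed here. The 9 bases, in capitals, are present in NM_007864 and absent from NM_001109752, and the exon lies at chr11:70030595-70030654 on the plus strand. The other lines give the 51-base exons of Dlg1 (chr16:31788082-31788132), Dlg2 (chr7:91810479-91810529) and Dlg3 (chrX:100771615-100771665), all on the plus strand. These exons stand at the same place in a shared run of exon lengths: in all 4 genes they follow an exon of 54 bases and precede exons of 125, 170, 137 and 145 bases. All 4 are coding in GENCODE M21, from whose GRCm38 (mm10) transcripts the sequences were taken, and they are shown 5′ to 3′ so that the 9 added bases can be seen against the shared 51.
Dlg4 exon, long form: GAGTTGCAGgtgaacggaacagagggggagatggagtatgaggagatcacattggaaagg
Dlg1 exon: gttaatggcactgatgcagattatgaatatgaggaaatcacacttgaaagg
Dlg2 exon: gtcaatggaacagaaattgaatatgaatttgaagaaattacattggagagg
Dlg3 exon: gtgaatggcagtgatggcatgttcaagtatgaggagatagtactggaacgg

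Without the 9 bases, the Dlg4 exon was identical to that of Dlg1 at 70.6% of positions, and to those of Dlg2 and Dlg3 at 68.6% each. NM_007864, the long form, had 10095 counts in homogenate and 12619 in synaptosomes, a ratio of 1.95 (1.90 to 2.00). NM_001109752, the short form, had 1794 and 1714 counts, a ratio of 1.49 (1.40 to 1.60). The long form thus made up 84.9% of Dlg4 counts in the homogenate (84.3 to 85.6%) and 88.0% in synaptosomes (87.5 to 88.6%). The estimate of this share rests on the 9 bases and on 1 exon junction in each transcript, since the rest of the sequence is shared.

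Dlg2 had 3 transcripts, each with its own first exon. NM_011807, which starts furthest upstream, had 2583 counts in homogenate and 4089 in synaptosomes and rose 2.47-fold (2.35 to 2.60). NM_001243047 starts 1144.2 kb further downstream and had 3101 and 1992 counts, a ratio of 1.00 (0.948 to 1.06). NM_001243046 starts 971.6 kb downstream and rose 7.45-fold (6.02 to 9.29), from 104 to 496 counts. The leading Dlg2 transcript therefore differed between the libraries: NM_001243047 held 53.6% of Dlg2 counts in homogenate and 30.3% in synaptosomes, and NM_011807 held 44.6% and 62.2%. In NM_011807, 1471 bases and 11 junctions occur in no other Dlg2 transcript, and in NM_001243047 255 bases and 1 junction. The counterpart of NM_001243047 with the same introns has no coding part in GENCODE M21.

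NM_001243046 also differs from the other Dlg2 transcripts in its internal exons. It has the 100-base exon at chr7:92417224-92417323 and the 42-base exon at chr7:92420632-92420673, and the other 2 transcripts have instead the 46-base exon at chr7:92418088-92418133, all on the plus strand. Dlg3 has the same choice, between a 100-base exon at chrX:100808053-100808152 and a 46-base exon at chrX:100809862-100809907. The sequences of both genes are given to show how alike the alternatives are in the 2 paralogs.
Dlg2 100-base exon: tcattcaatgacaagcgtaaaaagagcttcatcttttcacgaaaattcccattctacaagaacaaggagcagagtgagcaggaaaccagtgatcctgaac
Dlg3 100-base exon: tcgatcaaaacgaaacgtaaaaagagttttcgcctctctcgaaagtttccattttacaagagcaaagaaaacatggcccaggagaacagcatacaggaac
Dlg2 46-base exon: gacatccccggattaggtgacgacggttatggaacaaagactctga
Dlg3 46-base exon: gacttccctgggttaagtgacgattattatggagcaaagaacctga
Dlg2 42-base exon: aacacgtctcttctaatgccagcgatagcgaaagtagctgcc

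The 100-base exons of Dlg2 and Dlg3 were identical at 66.0% of positions and the 46-base exons at 78.3%. In Dlg2 the 46-base exon was in transcripts with 98.2% of the counts in the homogenate (97.8 to 98.5%) and 92.5% in synaptosomes (91.8 to 93.1%), and the 100-base exon was in the remaining 1.8% and 7.5%. In Dlg3 the 2 exons were nearer to equal use. The Dlg3 100-base exon was in 54.0% of counts (52.3 to 55.6%) and 47.2% (44.5 to 49.9%), and the 46-base exon in 46.0% and 52.8%. Counts favour the longer transcripts, which hold the 46-base exon. Per length of transcript, the 100-base exon was in 63.7% and 57.2% of Dlg3 TPM and the 46-base exon in 36.3% and 42.8%. The 100-base exon thus led in both libraries by TPM. The share of the 100-base exon was thus larger in synaptosomes in Dlg2 and smaller in Dlg3. These shares are sums of transcript estimates, not reads counted over the exons. In Dlg3 the 46-base exon is in the 2 transcripts that begin at or close to the first start. The 100-base exon is in the 2 that start further downstream. The choice of exon and the choice of start therefore cannot be told apart in Dlg3. In Dlg2 the 100-base exon is in NM_001243046 alone, which has its own start, so the same limit holds there.

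The 3 Dlg3 transcripts with enough counts to be placed all had ratios below 1. NM_001177780, which starts 9.5 kb downstream of the first start, had 1874 counts in homogenate and 631 in synaptosomes, a ratio of 0.526 (0.480 to 0.576). The upstream transcripts NM_001177778, with 924 and 408 counts, and NM_016747, with 691 and 314 counts, had ratios of 0.690 and 0.710. NM_001177779 had 20 and 14 counts, too few to place its ratio (0.511 to 2.28). NM_001177780 was the leading transcript in both libraries by share, with 53.4% and 46.2% of Dlg3 counts, and its counterpart with the same introns has no coding part in GENCODE M21.

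Of the 6 Dlg1 transcripts, the 2 most abundant in the homogenate lay on opposite sides of a ratio of 1. NM_001252436 starts 90.9 kb downstream of the first start and had 1161 counts in homogenate and 483 in synaptosomes, a ratio of 0.650 (0.583 to 0.723). NM_001252435, from the first start, had 1031 and 1015 counts, a ratio of 1.54 (1.41 to 1.68). NM_001252434 rose 4.11-fold (3.41 to 4.96), from 159 to 418 counts, and NM_001252433 rose 2.23-fold (1.79 to 2.78), from 141 to 201. NR_045516, a non-coding entry by its prefix, had a ratio of 2.60 (1.66 to 4.14), with 33 and 55 counts. Its counterpart with the same introns does have a coding part in GENCODE M21. The call of NR_045516 was lost with the authors' second set of count estimates, labelled as posterior in the files, where its log2 ratio was 0.83 in place of 1.38. NM_001252434 has no base and no junction of its own, so its estimate rests on the combination of exons.

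The shares of 2 Dlg1 exons differed with these transcripts, and they are printed for that reason. The 36-base exon at chr16:31854653-31854688 is in NM_001252436 alone, and the 99-base exon at chr16:31771757-31771855 is missing from NM_001252434, NM_001252433 and NR_045516. Both are on the plus strand and coding in GENCODE M21.
Dlg1 36-base exon: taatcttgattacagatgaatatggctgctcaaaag
Dlg1 99-base exon: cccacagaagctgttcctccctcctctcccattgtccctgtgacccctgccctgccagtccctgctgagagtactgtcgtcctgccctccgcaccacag
The 36-base exon was in 43.1% of Dlg1 counts in the homogenate (41.2 to 45.0%) and 21.0% in synaptosomes (19.4 to 22.7%). Its transcript, NM_001252436, is also the only Dlg1 transcript with a downstream start, so the exon and the start cannot be told apart. That transcript has 703 bases found in no other Dlg1 transcript, and its first exon is 667 bases long. The 99-base exon was in 87.6% (86.3 to 88.9%) and 70.7% (68.8 to 72.6%). Both lengths are multiples of 3, so their presence or absence keeps the reading frame.

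Magi2 showed the largest difference in transcript shares among the 7 genes. NM_015823 had 1194 counts in homogenate and 423 in synaptosomes, and its share of Magi2 counts was 74.6% (72.4 to 76.7%) and 31.8% (29.3 to 34.4%). NM_001170745, which has the same start 680.5 kb downstream of the first, rose 6.11-fold (4.90 to 7.67), from 102 to 399 counts, a log2 ratio of 2.61, and of 2.05 with the posterior estimates. NM_001170746, from the first start, rose 2.62-fold (2.26 to 3.02), from 304 to 509. The 3 transcripts held 74.6%, 6.38% and 19.0% of Magi2 counts in homogenate and 31.8%, 30.0% and 38.2% in synaptosomes. The homogenate thus had 1 dominant Magi2 transcript and synaptosomes 3 of similar share.

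The downstream pair of Magi2 transcripts differs chiefly by a 42-base coding exon at chr5:20543585-20543626 on the plus strand, which NM_001170745 lacks. In Magi3, NM_001159354 lacks a 91-base exon of NM_133853, of which the first 47 bases, at chr3:104016646-104016692 on the minus strand, are coding in GENCODE M21. These 2 sequences mark the splice choices with the largest change in share in the Magi genes.
Magi2 42-base exon: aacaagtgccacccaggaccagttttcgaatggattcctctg
Magi3 exon, coding part: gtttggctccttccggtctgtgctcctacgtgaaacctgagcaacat
The Magi2 exon was in 93.6% of Magi2 counts in the homogenate (92.3 to 94.8%) and 70.1% in synaptosomes (67.6 to 72.5%). NM_001170745 has 1 base and 1 junction of its own and NM_015823 has none, so few reads can separate this pair. With the posterior estimates, the exon was in 91.3% and 72.4%.

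Both Magi3 transcripts share their start. NM_133853, with the 91-base exon, had 877 counts in homogenate and 440 in synaptosomes, a ratio of 0.783 (0.697 to 0.880). NM_001159354, without it, rose 2.58-fold (2.08 to 3.21), from 138 to 228 counts. The transcript with the exon thus held 86.4% of Magi3 counts in the homogenate (84.1 to 88.5%) and 65.9% in synaptosomes (62.1 to 69.5%). Magi3 as a whole, with a ratio of 1.03, showed neither of these differences.

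In Magi1 the 1 transcript called lower was NM_001083320, which starts 370.2 kb downstream of the first start: it fell 2.01-fold (1.76 to 2.30), from 912 to 291 counts. NM_001083321, which starts close by, had 522 and 223 counts, a ratio of 0.667. NM_010367, from the first start, had 391 and 212 counts, a ratio of 0.847 (0.713 to 1.00). NM_001029850 rose 3.90-fold (2.34 to 6.72), from 22 to 55 counts, the scarcest transcript to be called; with the posterior estimates its log2 ratio was 1.28 in place of 1.96.

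**Figure D3:**
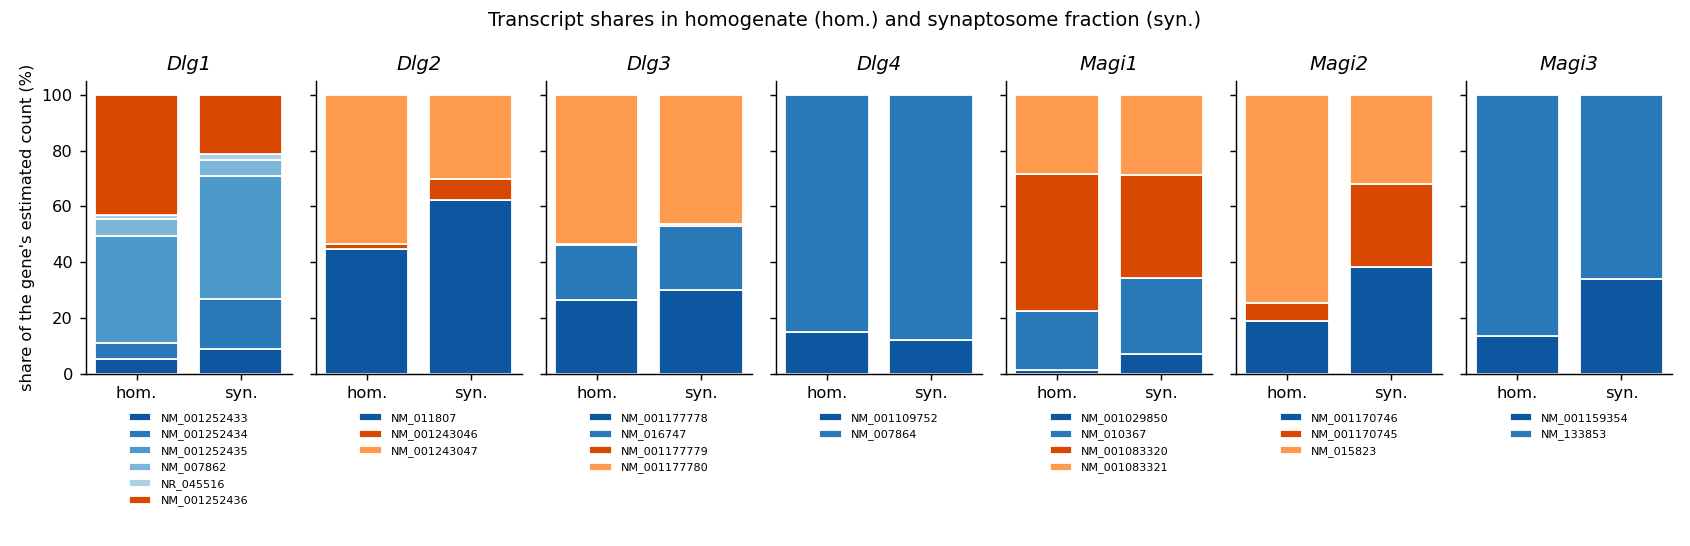
Share of each gene's estimated count held by each transcript, in the homogenate (left bar) and synaptosomes (right bar) of each panel. Blue shades are transcripts from the first start and orange shades those that start more than 1 kb downstream. The blue part is taller in synaptosomes in Dlg1, Dlg2, Dlg3, Magi1 and Magi2, and Dlg4 and Magi3 have blue parts only.

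Start groups were compared in the genes with more than 1 start, a comparison chosen after the transcript values were seen. Transcripts that began within 1 kb of the gene's 5′-most start were summed as the upstream group and the others as the downstream group, with at least 20 counts in each group. The upstream share was larger in synaptosomes in 5 of 5 members, where 60.4% of 700 such genes had a larger upstream share. The ratio of upstream to downstream counts differed by 2-fold or more in 3 of the 5, where 30.7% of the 700 genes did so in that direction and 19.0% in the other. The groups are sums and do not describe each transcript. In Dlg2 and Magi2 the largest rise was in the downstream group, in NM_001243046 (7.45-fold) and NM_001170745 (6.11-fold). The upstream transcripts of these genes rose 2.47-fold and 2.62-fold. In Dlg1 and Magi1 the largest rise was in the upstream group (4.11-fold and 3.90-fold).

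In Dlg1 the upstream group held 56.9% of counts in the homogenate (55.0 to 58.8%) and 79.0% in synaptosomes (77.3 to 80.6%), a ratio of ratios of 2.85 (2.51 to 3.24). In Magi2 it held 19.0% and 38.3%, a ratio of ratios of 2.64 (2.23 to 3.13), and in Dlg2 44.6% and 62.2%, a ratio of ratios of 2.04 (1.90 to 2.19). Magi1 gave 22.4% and 34.2% (ratio of ratios 1.81, 1.50 to 2.18) and Dlg3 46.0% and 52.8% (1.31, 1.15 to 1.49). In Dlg3 the upstream group is the same transcripts as those with the 46-base exon. In Dlg1 the downstream group is the 1 transcript with the 36-base exon. For both genes the start shares and those exon shares are thus the same result. On the log2 scale the 5 members ran from 0.39 to 1.51, within the spread of the 700 genes, which had a median of 0.30 and quartiles of -0.56 and 1.39. The Dlg1 value was higher than that of 77.3% of the genes and the Dlg3 value higher than that of 52.6%.

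**Figure D4:**
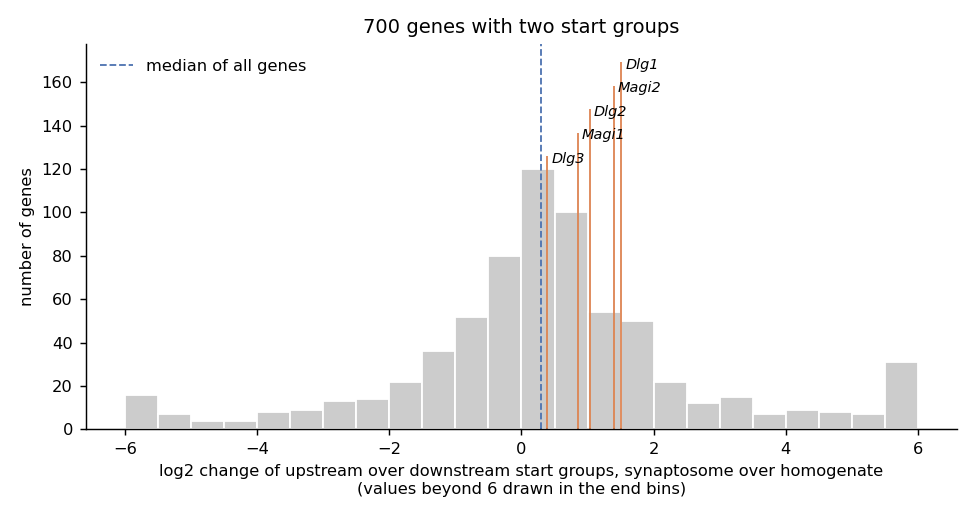
Distribution over 700 genes of the log2 change in the ratio of upstream to downstream start groups, synaptosome over homogenate, with the 5 members marked by lines. Values beyond 6 are drawn in the end bins, and the dashed line is the median of 0.30. The members lie between 0.39 for Dlg3 and 1.51 for Dlg1, to the right of the median.

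Other genes of the MAGUK superfamily and known partners of the Dlg and Magi proteins were counted by the same rule. Of all 14153 genes kept, 12.8% were higher, 9.1% were lower and 6974 were above 0. Their median log2 ratio was -0.01, and -0.51 by library totals. Of the other MAGUK genes, 16 of 19 passed the filter, 3 were higher and 2 lower, and the median log2 ratio was -0.30. That sign turned with the filter: when it was set at 10 CPM, 13 genes were left and their median was 0.25. Among those higher were Mpp6, a p55-type MAGUK, at 3.39-fold (3.10 to 3.70), and the tight-junction scaffold Tjp1 at 2.02-fold (1.90 to 2.15). The 2 lower were Mpp4, which fell 11.0-fold (4.13 to 41.7) from 69 to 4 counts, and the calcium channel subunit Cacnb2, which fell 2.11-fold.

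Of 24 genes listed as Dlg membrane partners, 8 were higher, 0 lower and 23 above 0. The list also takes in proteins linked to Dlg only through others. The median was 0.63 (0.14 by library totals and 0.71 relative to genes of the same abundance bin). The NMDA receptor subunit Grin2b rose 3.63-fold (3.19 to 4.13), from 341 to 793 counts. The potassium channel Kcnj10, at 4.11-fold (3.99 to 4.23), had the highest ratio, and it is best known from astrocytes. The voltage-gated potassium channel Kcna2, one of the most abundant of the list, had a ratio of 1.51, and Lrrtm2, a synaptic adhesion protein, had the lowest, 0.992 (0.894 to 1.10).

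Of the cytoplasmic partners, 19 were measured and 1 more listed gene was not analysed here; 5 were higher and 0 lower, and the median was 0.49 (-0.01 by library totals and 0.07 relative to genes of the same abundance bin). Dlgap3, which links Dlg proteins to Shank scaffolds, rose 3.88-fold (3.73 to 4.03), from 3527 to 8757 counts. The kinesin Kif1b rose 2.51-fold (2.45 to 2.56), and the microtubule protein Map1a had a ratio of 1.38. Akap5, the kinase anchor of the postsynaptic density, had the lowest ratio, 0.537 (0.488 to 0.591). Of the 13 Magi partners, 1 was higher and 0 lower, and the median was 0.19 (-0.30 by library totals). The 1 higher was Ctnnb1, which encodes beta-catenin, at 2.02-fold (1.96 to 2.09). Adgrb1, an adhesion receptor listed in the files as Bai1, had a ratio of 1.55 (1.50 to 1.61).

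Among 8 polarity partners of Dlg1, 3 were higher and 1 lower, and the median was 0.61 (0.11 by library totals). Apc, a tumour suppressor that binds microtubule ends and Dlg1, rose 3.10-fold (3.02 to 3.20), and Kif13b, a kinesin that carries Dlg1, rose 2.75-fold. Llgl1, a polarity protein that acts with Dlg1 and Scrib, rose 2.07-fold, and Lin7a, a partner of Cask and Dlg1, fell 2.18-fold (1.94 to 2.45). Of 12 enzymes that add or remove palmitate, the lipid that anchors Dlg4, 1 was higher and 0 lower, and the median was 0.39 (-0.10 by library totals). The 1 higher was Abhd17a, a depalmitoylating enzyme listed as Fam108a, at 3.34-fold (3.11 to 3.58). Ppt1, another that removes palmitate, had a ratio of 1.48, and Lypla1 had the lowest, 0.714 (0.591 to 0.860). Of 7 proteins that bind or regulate Dlg4 mRNA, 1 was higher and 0 lower, and the median was -0.01 (-0.5 by library totals). The 1 higher was Cyfip1, of a complex that regulates translation and actin, at 2.24-fold (2.09 to 2.39). Its paralog Cyfip2, the most abundant of this list, had a ratio of 0.994 (0.969 to 1.02), and Ptbp2, a splicing repressor of Dlg4, had the lowest, 0.737.

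Over all lists, 22 of 99 partner genes (22.2%) were higher and 3 (3.03%) lower, beside 12.8% and 9.1% of all genes kept, and their median was 0.40. Relative to genes of the same abundance bin, 11 partner genes (11.1%) were higher and 5 (5.05%) lower, beside 11.7% and 8.56% of all genes, so the share higher was then near that of all genes. By library totals, 6 (6.06%) were higher and 11 (11.1%) lower, beside 4.49% and 25.6% of all genes. The partner genes nearest in log2 ratio to Dlg4 (0.91) were Cacnb3 at 0.92, Dlg5 at 0.96 and Sema4c at 0.85. Those nearest to Dlg3 (-0.72) were Ptk2b at -0.72, Cacnb4 at -0.64 and Mpp3 at -0.80. This likeness is in 1 ratio of 2 libraries.

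**Figure D5:**
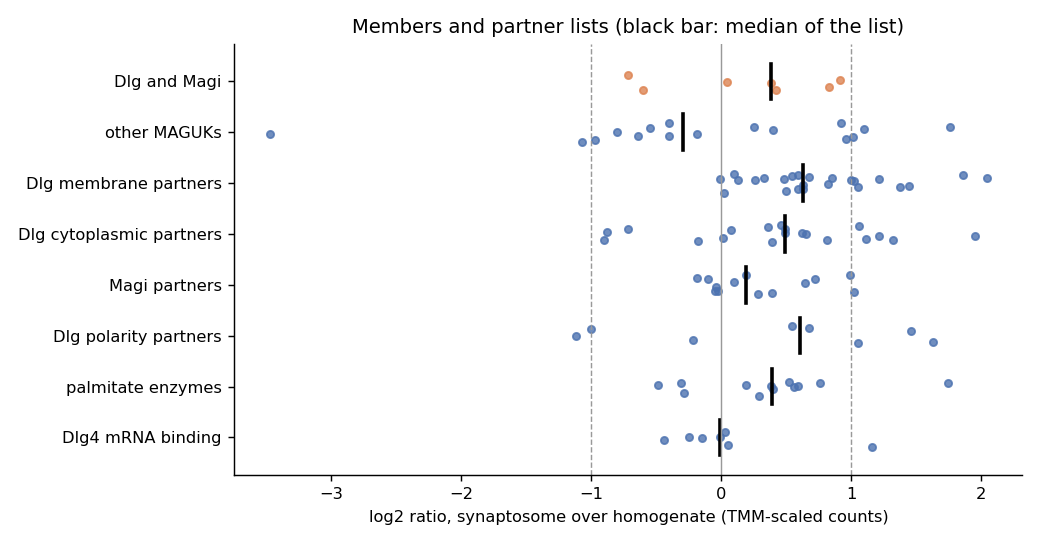
Log2 ratio of each kept gene of the Dlg and Magi family and of 7 lists of related genes, synaptosome over homogenate; points are genes and black bars the list medians, with dashed lines at 2-fold. The medians run from -0.30 for other MAGUKs (0.25 with the filter at 10 CPM) to 0.63 for Dlg membrane partners, on the TMM scale. Mpp4 is the point furthest left.

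Markers of other cell types differed between the libraries, and no listed marker was at 0 in either. Of 6 astrocyte markers 5 were higher, and their summed CPM was 4137 in homogenate and 17500 in synaptosomes. Of 6 oligodendrocyte markers 2 were higher, with sums of 7141 and 22760, and of 6 microglial markers 3 were higher, with sums of 206.8 and 386.9. Of 6 endothelial markers 5 were lower, with sums of 161.5 and 21.8. Of 6 neuronal markers 0 were higher and 3 lower, with sums of 5866 and 5596; the lower ones were Snap25, Gad1 and Gad2, and Slc17a7, of glutamatergic neurons, had a log2 ratio of 0.93. The part of these differences in the ratios of the Dlg, Magi and partner genes was not tested.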

How the data were processed

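The submitters' processing notes name RSEM 1.2.5, TopHat 1.3.3, edgeR 3.0.6 and FastQC, with mm10 as the build. The step each tool served, and whether reads were counted by strand, are not given in the sources used. Per the labels, a stranded mRNA kit was used. The authors deposited expected counts per transcript, estimates that need not be whole (61.4% of values were whole in homogenate and 67.9% in synaptosomes), with TPM per transcript. The deposited signal per gene was the summed count times 0.7983 in homogenate and 1.2527 in synaptosomes, within 0.5% for 98.8% of genes in each.

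Counts were summed per gene symbol, rounded to whole numbers and scaled by TMM (edgeR 4.0.16, R 4.3.3; factors 1.186 and 0.843). Features under a mean of 1 CPM were left out, and 14153 genes remained. Ratios of synaptosome to homogenate carry exact 95% Clopper-Pearson intervals given the summed count. They leave out the error of assigning reads to transcripts and of PCR copies. The calculation was tested on simulated counts. With 1 library per fraction, a rule of size stood in for a test.

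The members, gene lists and rules were chosen with earlier results of these data known. Named by rule were all members and their transcripts, in each list the 2 most abundant genes and those with the highest and lowest ratio, and the 3 partner genes nearest to the highest and lowest member. Other genes and the exons were chosen after their values were seen. Some results for named genes are not reported here. Exon sequences came from GENCODE M21 transcripts (GRCm38); 23 of 24 transcripts had a GENCODE transcript with the same introns, 21 with a coding part. No other gene in the files overlapped the members' exons. Alternatives covered the scaling, TPM, the signal, the filter, and centring by abundance or length; DESeq2 1.42.0 gave size factors only. Calculations used Python 3.11.15, numpy 2.4.6, scipy 1.17.1 and pandas 2.3.3.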

Additional observations from a re-analysis of the deposited data

How the results depend on the processing

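No paired analysis was possible because each fraction had 1 library, and no library could be left out for the same reason. With library totals, 2 members were lower (Dlg3 and Magi1) in place of 0, the members' median log2 ratio was -0.12 in place of 0.38, 6 partner genes were higher and 11 lower, and 4 member transcripts were higher and 6 lower. With the deposited TPM, 2 members were lower (the same 2), the median was -0.17, 6 partner genes were higher and 12 lower, and 4 transcripts were higher and 7 lower. Relative to genes of the same abundance bin (1 of 10 by mean CPM), 1 member was lower (Dlg3), the median was -0.06, and 11 partner genes were higher and 5 lower. With DESeq2 size factors, 0 transcripts were lower in place of 1. Over all genes kept, 1807 (12.8%) were higher and 1288 (9.1%) lower with TMM. The counts were 636 (4.49%) and 3629 (25.6%) with library totals, and 569 (4.02%) and 3917 (27.7%) with TPM. Lower calls were thus common over all genes by both, and the cause was not tested. Relative to the abundance bin, 11.7% of all genes were higher and 8.56% lower. Of all transcripts kept, 7.83% were higher and 28.0% lower with library totals. That share was not worked out with TPM. Dlg1, Magi2 and Magi3 changed sign with library totals and with TPM, and Dlg1 and Magi3 relative to the abundance bin. No member changed sign with DESeq2 size factors, the deposited signal, posterior count estimates, either filter or centring by length. With posterior estimates, chosen after seeing the data, 8 transcripts were higher in place of 9, without NR_045516 of Dlg1. With a filter at 10 CPM, the median of other MAGUKs was 0.25 in place of -0.30. By library totals and by TPM the medians of the cytoplasmic partners (-0.01 and -0.08), Magi partners (-0.30 and -0.27) and palmitate enzymes (-0.10 and -0.15) were below 0. With start groups split at 10 kb, or by TPM or posterior counts, also chosen after seeing the data, 3 members differed by 2-fold or more, as in the values given above. Depth limits the scarcest transcripts: NM_001177779 of Dlg3 had 20 and 14 counts.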
